A study of Danio rerio with 11 samples.

Results

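Heads of wild-type (WT) zebrafish at 24 hours post fertilization (hpf) were set against eyes of WT larvae at 48 hpf, with 1 RNA library for each. These are 2 of the 11 libraries of a study of srrm3, a splicing regulator that promotes, through its eMIC domain, the use of very short neuronal exons (microexons). The head library was chosen as the only one of its age and tissue, and the 48 hpf WT eyes as the youngest eyes free of the mutation. The heads came from fish of the AB strain and were pooled. The eyes came from WT siblings of larvae with a mutated eMIC domain of srrm3, were genotyped by fin clip, and were likewise pooled, so each library averages several animals and says nothing of the spread between them. The labels name no agent for either group, and both carry the WT eMIC domain. Head RNA was purified with a different kit size (RNeasy Mini) from eye RNA (RNeasy Micro), and polyadenylated RNA was sequenced in both. Age, tissue, the stated origin of the fish and kit differ together, and their parts in any difference cannot be told apart. With no replicates, every value below is a ratio of 1 library to 1 library with no replicate check and no p-value.

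At the younger age the zebrafish optic cup is still mostly dividing neuroepithelium, and the head also holds brain, ear and nose placodes, blood, muscle precursors and skin. By the older age the first ganglion cells have left the cell cycle, amacrine, horizontal, bipolar and photoreceptor precursors follow, and the lens fibre cells fill with crystallins, the proteins that make the lens transparent. The head sample contains eyes of its own, so an eye gene is diluted in it by the rest of the head and need not be absent.

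Levels are given as cRPKM, a deposited value that scales the read count per gene for length and library depth. Differences are the log2 ratio of cRPKM + 1, eyes minus head. The length in that scaling was worked out from counts and cRPKM, and is an effective length that need not be that of the gene. Its median was 0.121 kb over the counted hatching gland genes, so a high cRPKM can rest on few counts. A gene was counted when the library with its higher level gave at least 20 counts and a cRPKM of 5 or more, and called 2-fold different at a log2 ratio of 1 or more in either direction. The head library held 48209161 counts and the eye library 45570408, within the 37724575 to 92560511 of the series. Folds printed below are plain ratios of cRPKM without the added 1, unless a floor is named. For low genes they are therefore larger than the log2 ratio that set the calls. Intervals beside single genes are exact 95% binomial (Clopper-Pearson) intervals of the ratio of counts and cover counting error only. Of 29387 genes with values, 11011 were counted. As a yardstick of difference between like libraries, the median absolute log2 ratio was 0.36 between head and eyes and 0.14 between the mutant and WT sibling eyes of 48 hpf over the same genes.

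The tissue labels were checked against markers of tissues that an eye should lack. The 48 hpf eye library held transcripts of trunk, brain and heart at levels near those of the head, and of yolk-related tissues and the hatching gland at lower levels. The summed cRPKM of the 37 measured Hox genes of groups 4 to 13, which pattern the trunk and tail, was 158 in the head, 162 in the 48 hpf WT eyes and 206 in the mutant eyes of that age. It was 15.6 in the 60 hpf WT eyes, 75.6 in the 60 hpf mutant eyes and 1.79 in the 5 dpf WT eyes. Both 48 hpf libraries thus carried as much Hox RNA as the head, and the later eyes less.

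MYL7, the atrial and ventricular myosin light chain of the embryonic heart, stood at 56.2 in the head, 77.2 in the 48 hpf WT eyes, 50.9 in their mutant siblings and 9.53 in the 60 hpf WT eyes. It was 43.5 in the 60 hpf mutant eyes, 35.4 in the 72 hpf WT eyes and 51.6 in the 5 dpf mutant eyes, but 0.14 in the 5 dpf WT eyes. The hatching gland genes, mostly proteases of a gland lost after hatching, summed to 1039 in the head library. The sum was 308 and 326 in the 48 hpf WT and mutant eyes, and 13.7 in the 60 hpf WT eyes. Of these sums, ctslb gave 401 in the head from 58 counts and 73.15 in the 48 hpf WT eyes from 10 counts. The midbrain factor EN2 ENSDARG00000038868 was at 13.9 in the head and 10.1 in the 48 hpf WT eyes, was still at 9.58 in the 60 hpf WT eyes, and was listed at 0 in both adult retinae. No list of other tissues was at 0 in the 48 hpf WT eyes. The part of other tissue in the differences below was not tested. Values of the 60 hpf WT eyes are given beside some of the main ones because they carry less of most of it. Forebrain, midbrain and neural crest factors were not much lower there. Their sums in the 48 and 60 hpf WT eyes were 430 and 451, 236 and 228, and 369 and 355. The hindbrain sum fell from 185 to 85.3. All comparisons with the head share its 1 library.

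**Figure D1:**
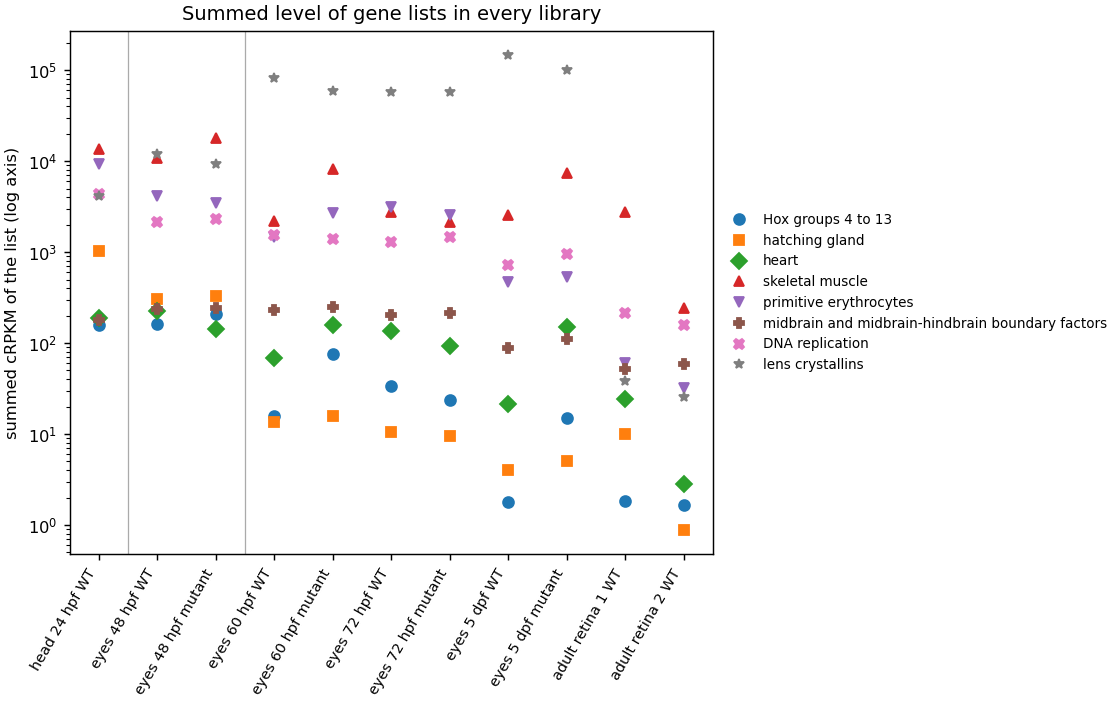
Summed cRPKM of 8 gene lists (log axis) in each of the 11 libraries, with 1 point per list and library, and grey lines that set off the head and the 48 hpf eyes. Hox groups 4 to 13 stood at 158 in the head and 162 in the 48 hpf WT eyes but at 15.6 in the 60 hpf WT eyes, while lens crystallins went from 4170 to 12005 and 82425.

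Of the 11011 genes counted, 980 (8.90%) were at least 2-fold higher in the 48 hpf eyes and 371 (3.37%) at least 2-fold higher in the head. The median gene stood at 0.08, with a middle 50% from −0.26 to 0.45. TMM factors rescaled the eyes against the head by −0.21 on the log2 scale, and by less for low genes because of the pseudocount. This gave 631 of 10545 genes (5.98%) higher in the eyes and 600 (5.69%) in the head. With the mutant eyes of 48 hpf against the same head, the shares of 11238 genes counted were 9.47% and 2.57%. Counts and medians under these alternatives are given below for some of the lists that they moved. Each count of called genes below is to be read beside the share of all genes in the same comparison. Eye-higher genes were thus 72.5% of the calls as deposited and 51.3% after TMM, so the excess of eye-higher genes depends on the scaling. Genes of long effective length leaned to the eyes. The median was −0.01 in the shortest 20% of genes (median effective length 0.746 kb) and 0.26 in the longest 20% (4.411 kb). The median of mutant minus WT eyes at 48 hpf ran from −0.11 to 0.11 over the same ranges of effective length.

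Among genes with a symbol the largest eye excess was that of si:ch211-255g12.6, at 0.26 in the head (6 counts) and 173 in the eyes (3712 counts), a 667-fold difference (300.4 to 1785). Its level was 2967 in the 60 hpf WT eyes and at most 0.8 in the adult retinae. Other genes at this end were fgfbp2b, a fibroblast growth factor-binding protein gene, at 2.30 and 56.5, and LCTL ENSDARG00000036139, a klotho-family gene of the lens, at 2.23 and 43.1. COL10A1 ENSDARG00000054753, which encodes collagen X, stood at 0.03 (4 counts) and 14.3 (1693 counts), and zgc:112285 at 0.08 and 30.2. Of these, LCTL and the crystallin crygm2d15 belong to lens lists and crx to the photoreceptor list, and they are taken up with their groups.

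At the other end, actc1c, a cardiac-type actin gene, stood at 53.0 in the head (97 counts) and 0.58 in the eyes (1 count), a 91.3-fold difference with a counting interval of 16.1 to 3658. A cRPKM of 53.0 from 97 counts implies a short effective length, so the level of actc1c is uncertain. In the adult retinae it stood at 40.9 and 1.42. A gene named for antifreeze proteins, afp4 ENSDARG00000041490, stood at 569 in the head (19050 counts) and 51.7 in the eyes (1637 counts). Apolipoprotein apoa4b.3 stood at 29.4 and 1.90, and the D-amino-acid oxidase gene DAO ENSDARG00000035602 at 46.6 and 4.36. The gene si:ch73-313h21.1 had 57 counts in the head and 0 in the eyes, which makes it at least 18.0-fold higher in the head at a floor of 3 counts per library. The genes of highest level differed less: the elongation factor eef1a1l1 led both libraries, at 10495 in the head and 8347 in the eyes.

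**Figure D2:**
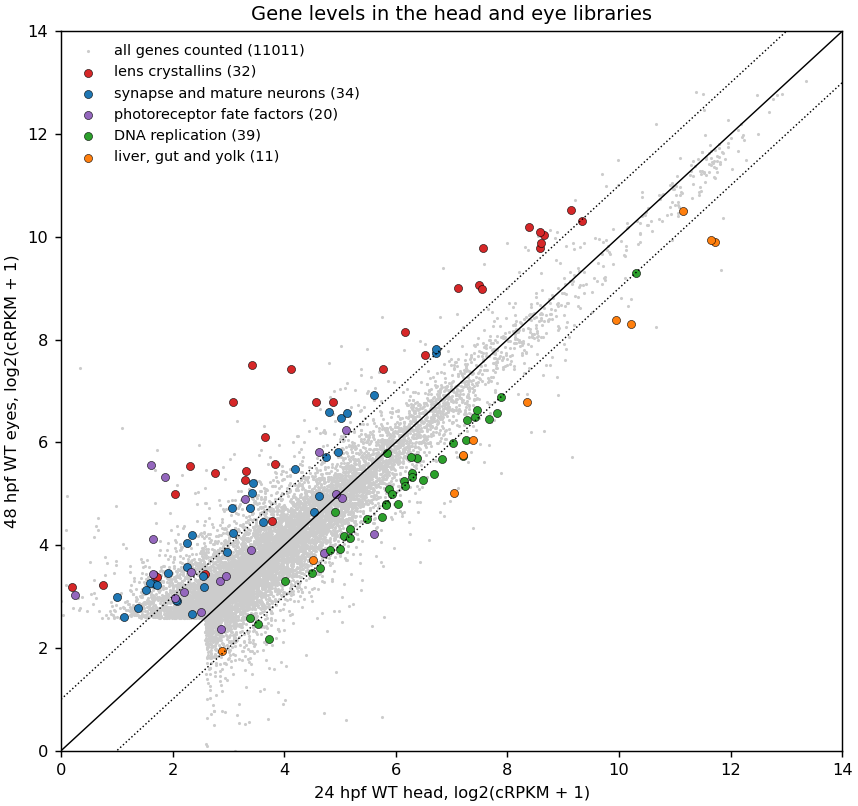
Level of each of the 11011 genes counted in the head (x axis) and the 48 hpf WT eyes (y axis), both as log2(cRPKM + 1), with the line of equality and dotted lines at a 2-fold difference. The 32 lens crystallins and 34 synapse genes lie above the line of equality, and the 39 DNA replication genes and 11 liver, gut and yolk genes below it.

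Lens genes stood highest in the eyes as a group. Of 51 measured crystallin genes 32 were counted, 29 of them at least 2-fold higher in the eyes, beside 8.90% of all genes, and 0 in the head. Their median log2 ratio was 1.84, with a range of 0.69 to 4.08, and all 32 stood above 0. Their summed cRPKM was 4170 in the head, 12005 in the 48 hpf WT eyes and 9368 in the mutant eyes, and it reached 82425 in the 60 hpf WT eyes. The head therefore already held crystallin RNA, at a summed level 2.88-fold below that of the eyes.

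The most abundant crystallin, CRYBA4, stood at 560 in the head and 1468 in the eyes, a 2.62-fold difference (2.57 to 2.67). Crystallin crygm2d15 stood at 9.72 and 180, an 18.5-fold difference (14.9 to 23.1), and was the most changed of the list. Its reads may be shared with near-identical crygm2d copies, so it is uncertain as a single gene. The smallest ratio was that of cryba1l2, at 12.7 and 21.1. In the adult retinae the summed level of the list was 38.1 and 25.7.

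Genes of lens fibre structure and regulation gave the same picture for the structural members. Of 26 measured, 16 were counted, and 13 were at least 2-fold higher in the eyes, beside 8.90% of all genes, and 0 in the head. Their median was 1.80. BFSP2, a subunit of the beaded filament of fibre cells, stood at 7.13 in the head and 50.4 in the eyes. LIM2 ENSDARG00000015445, a fibre membrane protein, stood at 110 and 347, and the water channel genes MIP ENSDARG00000013963 and MIP ENSDARG00000037285 at 43.7 and 124, and 39.1 and 105. The lens regulators differed less: pitx3 stood at 17.1 and 16.7, and foxe3 at 2.04 and 1.70, below the minimum.

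Photoreceptor fate factors were higher in the eyes, while most genes of the finished photoreceptor were low in both libraries. Here as in every bulk sample, more cells of a type and more RNA per cell cannot be told apart. Of 23 measured fate factors 20 were counted, 9 were at least 2-fold higher in the eyes and 1 in the head, with a median of 0.91. The shares of all genes were 8.90% and 3.37%. The homeobox gene crx ENSDARG00000011989, a master factor of photoreceptors, stood at 2.05 in the head (230 counts) and 46.2 in the eyes (4896 counts), a 22.5-fold difference (19.7 to 25.8). A second gene of that symbol, CRX ENSDARG00000043483, stood at 2.63 and 39.0. Both were also high in the mutant siblings, at 38.5 and 30.9.

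NR2E3, a nuclear receptor of rod fate, stood at 2.14 in the head and 16.3 in the eyes. The cone factor six7, a homeobox gene that the eye field list also holds, stood at 0.19 (37 counts) and 7.18 (1322 counts), a 37.8-fold difference (27.3 to 53.9). Broader factors of neural and eye fate differed by less: NEUROD1 stood at 23.8 and 55.1, and OTX2 at 33.3 and 74.4. The orphan receptor gene NR2F6 ENSDARG00000003165 was the 1 member at least 2-fold higher in the head, at 47.6 and 17.6, and 4 of the 20 stood below 0. TMM scaling gave 6 members higher in the eyes and 2 in the head, beside 5.98% and 5.69% of all genes. The mutant eyes gave 9 and 2, beside 9.47% and 2.57%.

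Only 9 of 60 measured phototransduction genes were counted. Of these, 5 were 2-fold higher in the eyes, beside 8.90% of all genes, and 0 in the head, with a median of 1.52. The G protein subunit gene GNB3 stood at 0.51 in the head and 16.9 in the eyes, a 33.0-fold difference (24.7 to 45.1). In the adult retinae GNB3 stood at 35.19 and 45.95, where the cone transducin gene GNAT2 stood at 2954 and 3374. Which retinal cells gave the GNB3 RNA was not tested. The blue cone opsin opn1sw2 stood at 0.73 and 0.66, under the minimum, and at 211 in the 60 hpf WT eyes. The list summed to 147 in the head, 266 in the 48 hpf WT eyes and 3822 in the 60 hpf WT eyes. Much of the first 2 sums came from 2 other G protein subunit genes. These were gnb1a, at 61.0 in the head and 71.9 in the 48 hpf WT eyes, and gnb1b, at 55.0 and 74.6. Of 28 outer segment and connecting cilium genes 3 were counted and 0 were 2-fold different. The disc rim gene PRPH2 ENSDARG00000014840 stood at 0.05 and 0.15, and PRPH2 ENSDARG00000038018 at 0 and 0.07.

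**Figure D3:**
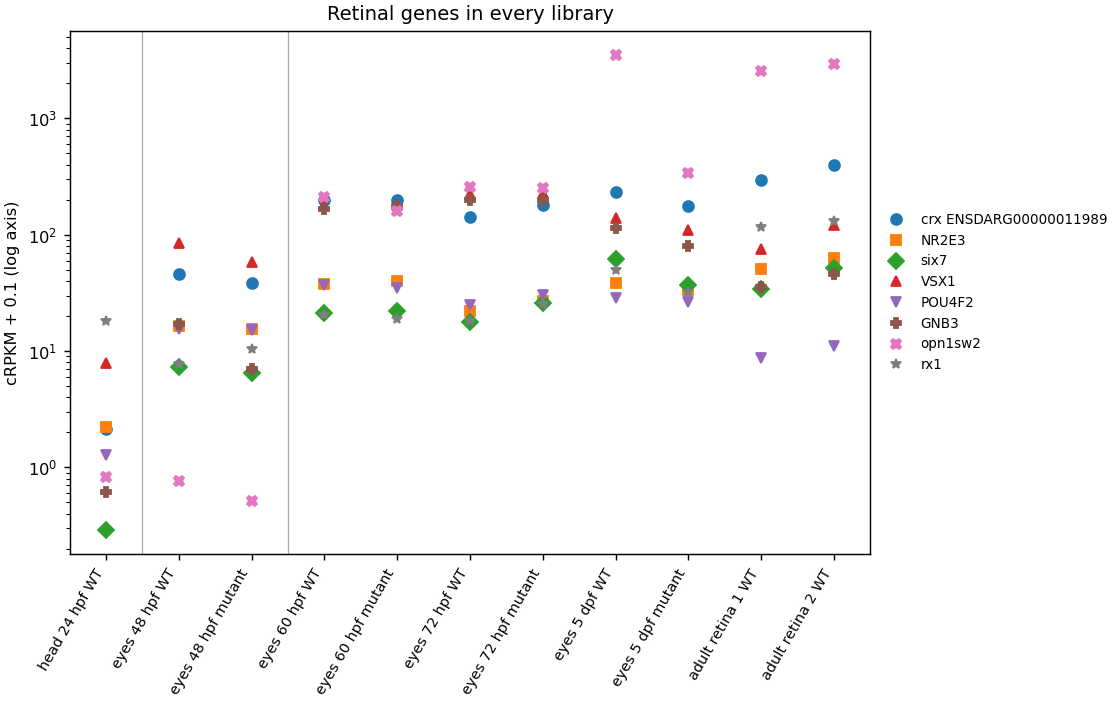
cRPKM of 8 retinal genes, with 0.1 added for the log axis, in each of the 11 libraries, 1 point per gene and library. The fate factor crx ENSDARG00000011989 was at 2.05 in the head and 46.2 in the 48 hpf WT eyes, while opn1sw2 was at 0.73 and 0.66 there and at 211 in the 60 hpf WT eyes.

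Genes of the inner retinal neurons were higher in the eyes, most of all those of amacrine, horizontal and bipolar cells. Of 18 counted amacrine and horizontal genes, among 26 measured, 10 were 2-fold higher in the eyes, beside 8.90% of all genes, and 0 in the head. Their median was 1.23, and all 18 stood above 0. TFAP2B, an amacrine transcription factor gene, stood at 8.06 and 32.4, and BARHL2 at 14.0 and 46.8. The GABA-synthesis gene GAD1 ENSDARG00000027419 stood at 4.02 and 9.92, and PTF1A, which specifies these cells, at 14.8 and 21.4. Brain neurons also make several of these genes, and their part was not tested.

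Among bipolar genes 8 of 23 were counted and 5 were 2-fold higher in the eyes, beside 8.90% of all genes. With the mutant eyes 2 were, beside 9.47%. VSX1, a homeobox gene of bipolar cells, stood at 7.87 in the head and 84.9 in the eyes, a 10.8-fold difference (9.90 to 11.8), and at 57.9 in the mutant eyes. The genes of bipolar signalling were still low: GRM6 ENSDARG00000025671, the glutamate receptor of ON bipolar cells, stood at 1.03 and 1.25, and PRKCA at 0.16 and 0.23. The transcription factor thus differed between the libraries and the receptor hardly did.

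Ganglion cell genes gave 9 of 24 counted that were 2-fold higher in the eyes, of 31 measured, and 0 higher in the head, with a median of 0.79. The share of all genes higher in the eyes was 8.90%. The eye-higher count of ganglion cell genes was 6 under TMM scaling, beside 5.98% of all genes, and 6 with the mutant eyes, beside 9.47%. POU4F2, the factor of ganglion cell differentiation, stood at 1.17 in the head (170 counts) and 15.3 in the eyes (2099 counts), a 13.1-fold difference (11.2 to 15.4). RBPMS2 ENSDARG00000079578, an RNA-binding protein gene of these cells, stood at 7.35 and 28.4. The earlier factor atoh7, which starts the lineage, stood at 19.6 and 25.7, and the tubulin gene tubb5 at 389 and 625. The ratio of POU4F2 was thus larger than that of atoh7, which acts before it.

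Eye field and progenitor factors went both ways. Of 17 counted among 19 measured, 5 were 2-fold higher in the eyes and 2 in the head, with a median of 0.47. The shares of all genes were 8.90% and 3.37%. With the mutant eyes the counts of this list were 5 and 0, beside 9.47% and 2.57% of all genes. The retinal homeobox gene rx1 stood at 17.9 in the head and 7.66 in the eyes, 2.34-fold lower in the eyes. At 60 hpf rx1 was at 20.3, above the head. The factor mab21l2 stood at 42.2 and 102, and the homeobox gene SIX6 ENSDARG00000031316 at 18.1 and 20.5. Genes that set the axes of the retina hardly differed: 0 of 21 counted, among 30 measured, were 2-fold different, with a median of 0.07 that turns to −0.12 under TMM scaling.

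Pigment genes were about level. Of 14 counted melanin genes among 19 measured, 0 were 2-fold different, with a median of −0.12 that was 0.21 with the mutant eyes. DCT, an enzyme of melanin synthesis, stood at 155 in the head and 154 in the eyes, and TYR, which starts that synthesis, at 18.5 and 10.95. Of 18 counted visual cycle genes among 31 measured, 5 were 2-fold higher in the eyes and 1 in the head. Of all genes, 8.90% and 3.37% were. With the mutant eyes 3 and 1 of the visual cycle genes were called. The median was 0.14, and −0.06 under TMM scaling. RPE65 ENSDARG00000007480, the isomerase of the pigment epithelium, stood at 4.75 and 12.8, and rlbp1b, a retinaldehyde-binding protein gene, at 8.18 and 26.0. RPE65 ENSDARG00000054420 stood at 5.68 (142 counts) and 0.72 (17 counts), 7.89-fold higher in the head (4.76 to 13.9). RPE65 ENSDARG00000094752, the copy of highest level in both libraries, was level at 27.2 and 26.8.

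Glial genes went both ways. Of 14 counted genes of the Müller glia list among 20 measured, 4 were 2-fold higher in each library, with a median of −0.19. The shares of all genes were 8.90% for the eyes and 3.37% for the head. The balance was not stable. TMM scaling gave 3 higher in the eyes and 6 in the head, beside 5.98% and 5.69% of all genes. The mutant eyes gave 3 and 1, beside 9.47% and 2.57%. GFAP, the intermediate filament of radial glia, stood at 84.9 in the head and 27.5 in the eyes, and at 48.7 in the mutant eyes. The lipid carrier gene apoeb, which the liver, gut and yolk list also holds, stood at 1188 and 315. In the opposite direction, the fatty acid-binding protein gene FABP7 ENSDARG00000007697 stood at 874 and 2025, and its paralog FABP7 ENSDARG00000034650 at 4.25 and 31.5. SLC1A3, a glutamate transporter of glia, was lower in the eyes in 1 copy (SLC1A3 ENSDARG00000104431, 82.8 and 34.6) and higher in the other (SLC1A3 ENSDARG00000043148, 9.70 and 32.5). Brain radial glia also make these genes.

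**Figure D4:**
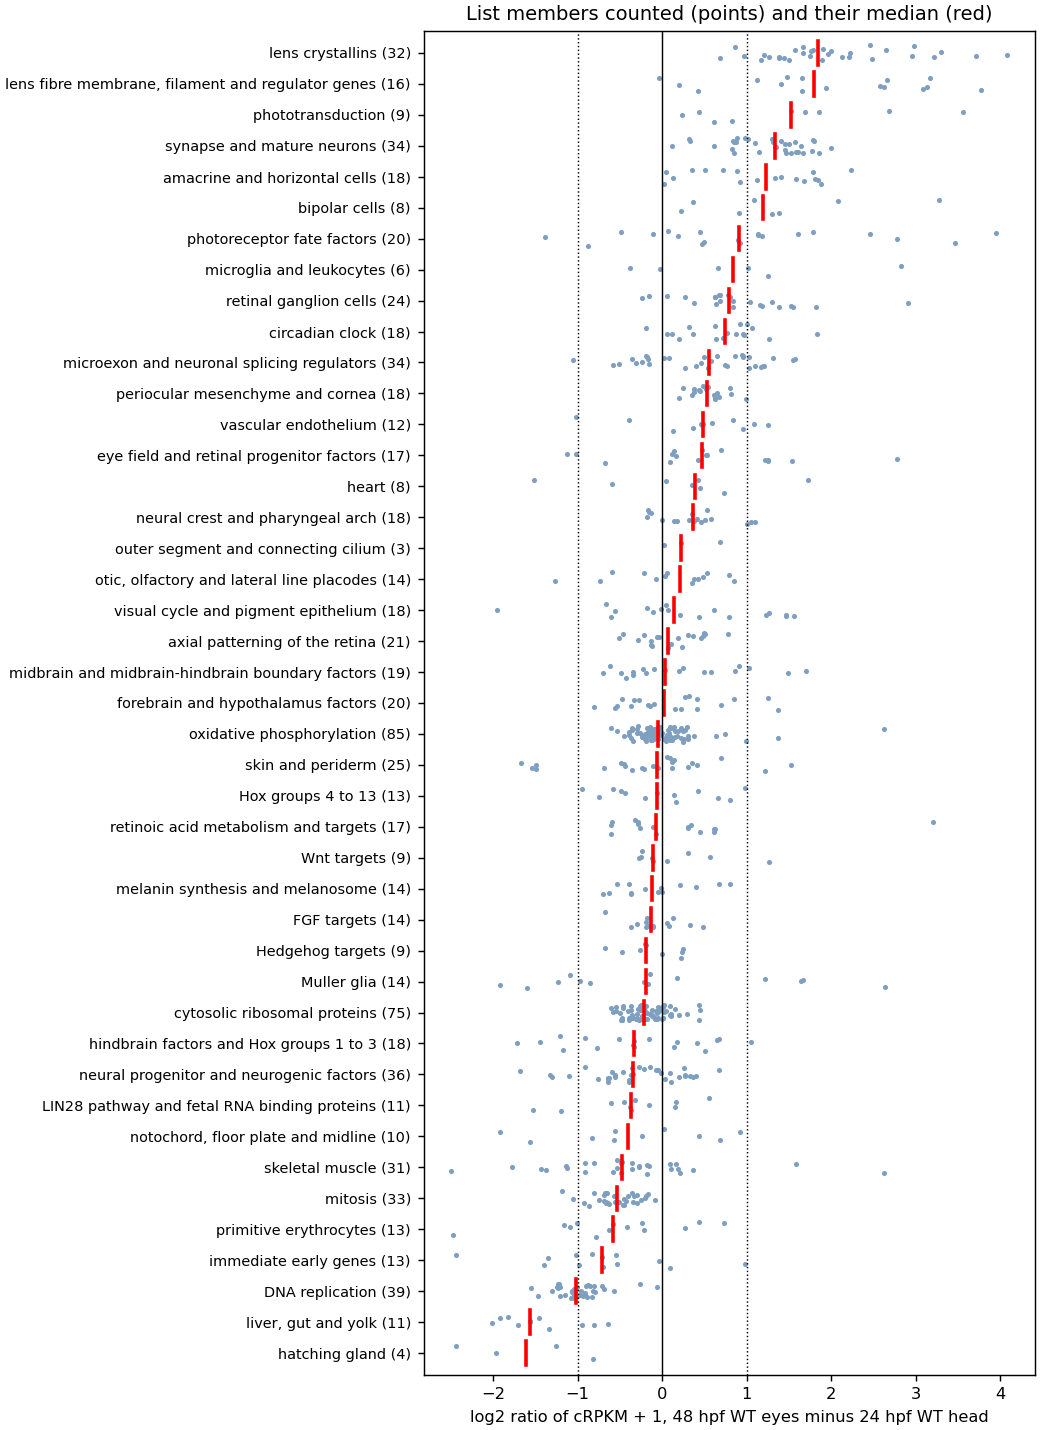
Log2 ratio of cRPKM + 1, 48 hpf WT eyes minus head, of every counted member of the 43 gene lists (points) with the list's median (red bar) and its number of counted members in brackets, and with dotted lines at a 2-fold difference. Medians run from −1.61 for hatching gland to 1.84 for lens crystallins, and those of DNA replication (−1.01) and synapse (1.34) lie outside the dotted lines.

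Genes of DNA replication were lower in the eyes almost in step. Of 39 counted, among 40 measured, 21 were at least 2-fold higher in the head, beside 3.37% of all genes, and 0 in the eyes. The count was 33 under TMM scaling, beside 5.69% of all genes, and 10 with the mutant eyes, beside 2.57%. The median was −1.01, and −0.90 with the mutant eyes, and none of the 39 stood above 0. Their summed cRPKM was 4346 in the head, 2153 in the 48 hpf WT eyes, 2304 in the mutant eyes and 1561 in the 60 hpf WT eyes. The eyes therefore held 2.02-fold less.

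PCNA, the sliding clamp of the replication fork, stood at 1271 in the head and 629 in the eyes, and MCM5, a subunit of the replicative helicase, at 153 and 64.7. The cyclin gene CCNE2 stood at 70.9 and 34.4. Of the ribonucleotide reductase genes, RRM2 ENSDARG00000020711 had the smallest ratio of the list at −1.55, and RRM2 ENSDARG00000078069, at 56.3 and 54.1, the one nearest to 0. Mitosis genes differed by less: 33 of 34 were counted, and the median was −0.54 with none above 0. Of the 33, 2 were 2-fold higher in the head, beside 3.37% of all genes. TMM scaling gave 5, beside 5.69% of all genes, and the mutant eyes 1, beside 2.57%. CDK1, the mitotic kinase, stood at 141 and 96.6, TOP2A at 115 and 71.1, and mki67 at 109 and 74.3.

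Neural progenitor and neurogenic factors were lower in the eyes for most members. Of 36 counted among 41 measured, 4 were 2-fold higher in the head, beside 3.37% of all genes, and 0 in the eyes. Their median was −0.35. The progenitor factor sox19a stood at 208 in the head and 83.5 in the eyes, SOX3 at 170 and 89.7, and her2, of a family that responds to Notch, at 52.4 and 15.7. The proneural gene ascl1a stood at 30.5 and 23.5, and the receptor gene NOTCH1 ENSDARG00000103554 at 44.5 and 47.4. LIN28A, an RNA-binding protein of early embryonic cells, was lower in the eyes in both copies: LIN28A ENSDARG00000004328 stood at 11.3 and 4.35 and LIN28A ENSDARG00000016999 at 6.65 and 1.66. The rest of that pathway's list stayed within 2-fold, with a median of −0.36 over its 11 counted genes. With the mutant eyes 0 were 2-fold different, and the median was −0.02.

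Genes of neurons and their synapses were higher in the eyes. Of 34 counted, among 56 measured, 23 were at least 2-fold higher in the eyes, beside 8.90% of all genes, and 0 in the head. Their median was 1.34, and all 34 stood above 0. SYT1, the calcium sensor of transmitter release, stood at 4.08 in the head and 17.4 in the eyes, a 4.26-fold difference (3.86 to 4.70). BSN, a scaffold of the active zone, stood at 1.01 and 7 and had the largest ratio of the list. SNAP25 ENSDARG00000058117, a membrane fusion protein gene, stood at 7.39 and 25.3.

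ELAVL3, an RNA-binding protein gene of young neurons, was the most abundant member, at 105 and 225. The smallest ratio was that of ctbp2a, at 22.1 and 24.1. At 60 hpf the median of the list against the same head was 2.29, with 44 of 46 counted genes 2-fold higher in the eyes, beside 18.8% of all genes in that comparison. Retinal and brain neurons share these genes, and which of them gave the RNA was not tested.

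Splicing regulators of neurons were measured because the study is about microexons. Of 34 counted among 42 measured, 9 were 2-fold higher in the eyes, beside 8.90% of all genes, and 1 in the head, with a median of 0.56. TMM scaling gave 4 and 1, beside 5.98% and 5.69% of all genes, and the mutant eyes 12 and 0, beside 9.47% and 2.57%. The study's gene srrm3 was low in both, at 0.18 in the head (26 counts) and 1.09 in the eyes (146 counts), a 6.06-fold difference (3.90 to 9.40). It was under the minimum for a call, and its log2 ratio of cRPKM + 1 was 0.82, also below the 2-fold limit. Its paralog srrm4 stood at 1.43 and 2.37, and the eMIC mutant eyes of 48 hpf held 1.76 of srrm3. RBFOX1, which reads a short motif beside alternative exons, stood at 5.24 and 17.5, and its muscle relative rbfox1l at 17.7 and 8.01. PTBP1, which represses neuronal exons, hardly differed (PTBP1 ENSDARG00000031907, 45.9 and 40.9). Of its neuronal paralogs, PTBP2 ENSDARG00000015901 stood at 43.1 and 63.1 and PTBP2 ENSDARG00000101947 at 16.3 and 14.3. Inclusion of microexons was not analysed here.

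Factors of brain regions were on the whole as high in the eye library as in the head. Of 20 counted forebrain and hypothalamus factors, among 27 measured, 2 were 2-fold higher in the eyes and 0 in the head, with a median of 0.03. Of 19 counted midbrain and boundary factors, among 24, 3 and 0 were, with a median of 0.04. Among all genes 8.90% were 2-fold higher in the eyes. Both medians turn under TMM scaling, to −0.16 and −0.15, and the forebrain median was −0.15 with the mutant eyes. The hypothalamic gene NKX2-1 stood at 9.93 and 7.67, and OTP ENSDARG00000014201, a factor of neurosecretory neurons, at 40.7 and 98.0. TAL2, a factor of midbrain GABA neurons, had the largest ratio of the midbrain list, at 10.7 and 36.9. TAL2 stood at 20.9 and 23.0 in the adult retinae, where OTP ENSDARG00000014201 was at 0.25 and 0.19 and NKX2-1 at 0.02 in both. The largest ratio of the forebrain list was that of foxg1b, at 10.9 and 29.8. In the adult retinae foxg1b stood at 101 and 42.2. Some of these factors were thus also found in retina, and the tissue that gave their RNA was not tested.

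Hindbrain factors stood lower in the eyes for most members, but the calls depended on the eye library. Of 18 counted genes, Hox groups 1 to 3 included, among 24 measured, 4 were 2-fold higher in the head, beside 3.37% of all genes, and 1 in the eyes, with a median of −0.33. With the mutant eyes 0 were higher in the head and 1 in the eyes, with a median of −0.16. The gene hoxb1b stood at 10.3 and 3.99, and HOXB3 at 31.6 and 35.0. Hox groups 4 to 13 gave 0 called genes among 13 counted of 37 measured, with a median of −0.06. The mutant eyes gave 1 gene higher in the eyes and a median of 0.40, and TMM scaling 1 higher in the head. HOXA5 stood at 6.6 and 14.0, HOXB5 ENSDARG00000054030 at 19.1 and 21.5 and HOXB8 at 14.7 and 7.12. Against the 60 hpf WT eyes all 13 were 2-fold higher in the head, beside 10.9% of all genes in that comparison, with a median of −2.48.

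Hatching gland, blood and yolk-related genes were lower in the eyes but far from absent. Of 4 counted hatching gland genes among 6 measured, 3 were 2-fold higher in the head, beside 3.37% of all genes. The hatching enzyme gene he1.1 stood at 432 in the head and 180 in the eyes, and he1.2 at 189 and 47.9. Of 11 counted liver, gut and yolk genes among 22 measured, 8 were 2-fold higher in the head and 0 in the eyes, with a median of −1.56. The shares of all genes were 3.37% and 8.90%. The lipoprotein gene apoa1a stood at 3372 and 954, a 3.53-fold difference, and apoa2 at 2268 and 1450. The liver gene fabp10a had 1 count in the head and 38 in the eyes.

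Of 13 counted genes of primitive erythrocytes among 16 measured, 4 were 2-fold higher in the head, beside 3.37% of all genes, and 0 in the eyes. Their median was −0.58. Their sum was 9421 in the head and 4096 in the eyes. The embryonic globin hbbe3 stood at 3629 and 654, and hbae3 at 4988 and 2899, while hbae1.3 was higher in the eyes at 86.4 and 144. The globins are near-identical in part, so single members are uncertain. Of the 12 counted genes of blood vessels among 22 measured, 2 were 2-fold higher in the eyes and 1 in the head, with a median of 0.48. Of all genes, 8.90% and 3.37% were. The vessel counts were 1 and 1 under TMM scaling, beside 5.98% and 5.69% of all genes. With the mutant eyes they were 4 and 0, beside 9.47% and 2.57%. TIE1, an endothelial receptor gene, stood at 2.18 and 5.73.

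Skeletal muscle genes leaned to the head against the 48 hpf WT eyes, with 23 of 31 below 0, but not against the mutant eyes. Heart genes showed no steady direction. Of 31 counted skeletal muscle genes among 47 measured, 6 were 2-fold higher in the head and 2 in the eyes, with a median of −0.47. The shares of all genes were 3.37% and 8.90%. TMM scaling gave 9 and 2 of the muscle genes, beside 5.69% and 5.98% of all genes. The mutant eyes of the same age gave 1 gene higher in the head, 2 in the eyes and a median of 0.45 against the same head, so the direction of this list depends on which 48 hpf library is used. The parvalbumin gene pvalb2 stood at 1920 in the head, 2046 in the WT eyes and 2817 in the mutant eyes. MYOG, a factor of muscle differentiation, stood at 0.98 and 11.2, and the troponin gene TNNI2 ENSDARG00000035958 at 95.3 and 16.1. Of 8 heart genes counted among 13 measured, 1 was 2-fold higher in each, with a median of 0.39 in the WT eyes and −0.34 in the mutant eyes. The natriuretic peptide gene nppa stood at 4.60 and 17.5. Against the 60 hpf WT eyes, 23 of 33 counted muscle genes were 2-fold higher in the head and 5 in the eyes, with a median of −2.36. Of 6 heart genes counted there, 4 were 2-fold higher in the head and 0 in the eyes, with a median of −1.77. The shares of all genes in that comparison were 10.9% and 18.8%.

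Skin genes were about level. Of 25 counted among 28 measured, 4 were 2-fold higher in the head and 2 in the eyes (0 with the mutant eyes), with a median of −0.06. Of all genes, 3.37% were 2-fold higher in the head and 8.90% in the eyes. The keratin gene krt4 was among the 5 most abundant transcripts of both libraries, at 7250 in the head and 6972 in the eyes. The keratin cyt1 stood at 1139 and 404, and icn, a calcium-binding protein gene of the epidermis, at 829 and 2391. Mesenchyme around the eye and the cornea leaned to the eyes: as deposited 18 of 18 genes stood above 0, the lowest at 0.20, with a median of 0.53, and 0 reached 2-fold. The corneal matrix gene TGFBI stood at 96.9 and 151, and the collagen gene col1a1a at 225 and 343.

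Neural crest genes gave 3 of 18 counted, among 20 measured, that were 2-fold higher in the eyes, beside 8.90% of all genes, with a median of 0.37. The count was 0 under TMM scaling and 0 with the mutant eyes. TFAP2A, a crest and amacrine factor, stood at 40.0 and 81.5, and SOX10 at 6.71 and 7.73. Placode genes had a median of 0.21, with 1 of 14 counted, among 19 measured, 2-fold higher in the head, beside 3.37% of all genes. That gene was oc90, which encodes a protein of the ear stones, at 8.99 and 3.14. The ear gene stm, which shapes the same stones, stood at 34.8 and 60.8, so transcripts of the ear were counted in both libraries. Of 10 counted genes of notochord and floor plate, among 20, 2 were 2-fold higher in the head (3 under TMM scaling, 1 with the mutant eyes), among them nkx2.9 at 11.8 and 2.38.

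Target genes of signalling pathways differed little. None of 9 counted Hedgehog targets, among 10 measured, and none of 14 FGF targets, among 15, was 2-fold different, with medians of −0.19 and −0.14 that were 0.10 and 0.01 with the mutant eyes. The Hedgehog effector gene GLI1 stood at 6.36 and 5.41, and the FGF target DUSP6 at 41.2 and 31.6. Of 9 counted Wnt targets, among 12, with a median of −0.11 that was 0.07 with the mutant eyes, 1 was 2-fold higher in the eyes: LEF1, a transcription factor of the pathway, at 11.5 and 29.0. Of 17 counted genes of retinoic acid metabolism and response, among 21, the 1 called gene was CRABP1 ENSDARG00000045926, a retinoic acid-binding protein gene, at 3.49 and 40.5, an 11.6-fold difference (9.63 to 14.0). The degrading enzyme CYP26A1 stood at 23.6 and 15.1. The mutant eyes gave 3 called genes of this list and a median of 0.30, against −0.07 with the WT eyes. Beside these Wnt and retinoic acid counts, 8.90% of all genes were 2-fold higher in the WT eyes and 9.47% in the mutant eyes.

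Ribosomal protein genes were close to level and slightly lower in the eyes. None of the 75 counted, among 78 measured, was 2-fold different, and the median was −0.21. RPLP0 stood at 5666 and 6937 and RPS18 at 2753 and 1805. Nuclear genes of oxidative phosphorylation gave 2 of 85 counted, among 89, that were 2-fold higher in the eyes, beside 8.90% of all genes. Their median was −0.05. The largest ratio was that of cox7a1, a cytochrome oxidase subunit gene, at 0.29 (9 counts) and 6.96 (204 counts).

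Clock genes leaned to the eyes and immediate early genes to the head. Of 18 counted clock genes among 27 measured, 3 were 2-fold higher in the eyes, beside 8.90% of all genes, and 0 in the head. Their median was 0.74. The eye-higher count was 2 under TMM scaling, beside 5.98% of all genes, and 7 with the mutant eyes, beside 9.47%. PER2, a clock gene that light induces in zebrafish, stood at 1.94 in the head, 9.48 in the WT eyes and 10.3 in the mutant eyes, but at 1.59 in the 60 hpf WT eyes. The hour of collection within the light cycle was not used here. Of 13 counted immediate early genes among 21 measured, 4 were 2-fold higher in the head, beside 3.37% of all genes, and 0 in the eyes. Their median was −0.71. TMM scaling gave 6, beside 5.69% of all genes, and 0.

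FOS, a gene switched on within minutes of a stimulus, stood at 26.3 in the head and 4.03 in the WT eyes, but at 23.7 in the mutant eyes of the same age. The low FOS level was therefore that of 1 of the 2 libraries of 48 hpf, and with the mutant eyes in its place 0 genes of the list were 2-fold different and its median was −0.20. Immune genes were mostly under the minimum: 6 of 36 were counted and 3 were 2-fold higher in the eyes, or 1 with the mutant eyes. The shares of all genes were 8.90% and 9.47%. The lysozyme gene lyz stood at 110 and 224 and the chemokine gene ccl34b.1 at 0.78 and 11.7, while the macrophage gene MPEG1 ENSDARG00000055290 stood at 1.3 and 3.74.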

How the data were processed

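Polyadenylated RNA of pooled 24 hpf WT heads and pooled 48 hpf WT eyes was compared. For each library the authors deposited read counts per gene, as whole numbers, beside cRPKM, a value of the RPKM type scaled for an effective length and depth. The submitters' processing notes name the build danRer10. Aligner, counter, strand use and what the c denotes were not given in the sources used here. Where genes overlap or lie antisense, their reads could not be assigned with certainty. Of 31848 genes listed, 2461 had no value and were left out. Symbols came from a table of gene names, which matched 25682 genes (87.4%), often in human form, and a symbol shared by several genes is printed with its identifier.

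Log2 ratios of cRPKM + 1 (pseudocount 1) were computed in Python 3.11.15 with pandas 2.3.3 and scipy 1.17.1. They understate the change of low genes. No statistical test was run, since each group had 1 library. Library totals of 48209161 counts (head) and 45570408 counts (eyes) set the counting intervals, which cover counting error only. TMM factors came from edgeR 4.0.16 in R 4.3.3.

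The members and the 43 gene lists were chosen with earlier results of these data known. The lists held 1244 measured genes, 864 of them counted. A gene was named when it was among the 10 with the largest or smallest ratio and a symbol, the 5 of highest level in a library, the first 4 entries of a list, or a list's largest ratio, smallest ratio or highest level. No sequence is shown, as none was used here, and some genes that this rule names are not reported here. Alternatives were other pseudocounts, minimums and scalings, and the 48 hpf mutant or 60 hpf WT eyes in place of the 48 hpf WT eyes.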

Additional observations from a re-analysis of the deposited data

How the results depend on the processing

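No paired analysis was possible because each group had 1 library and no test was run, and for the same reason no replicate could be left out. The counts of genes at least 2-fold higher in 48 hpf WT eyes (980) and of genes at least 2-fold higher in the 24 hpf WT head (371) became 382 and 181 with a pseudocount of 5, 1647 and 593 with no minimum, 315 and 191 with a minimum cRPKM of 20, and 631 and 600 with TMM scaling. With the 60 hpf WT eyes as the eye library they were 2200 and 1277. The median log2 ratio of all genes, 0.08, became −0.051 with a minimum cRPKM of 20 and −0.14 with TMM scaling. A pseudocount of 0.1, the median gene set at 0, and the mutant eyes of 48 hpf left both counts within 1.5 times. Of the named genes called in the main comparison, 6 turned with the 60 hpf WT eyes, where the log2 ratio was 0.41 for tnnt2c, −1.54 for nppa, 0.17 for rx1, −0.65 for lyz, 0.75 for JUNB ENSDARG00000074378 and −0.18 for PER2. The cause was not tested. No named gene called in the main comparison and no list with a median past 2-fold turned under the other alternatives. Calls near the limit are fragile, with 543 genes within 0.1 of it on the log2 scale.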

Other observations

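The 13 protein-coding genes of the mitochondrial genome, a group singled out after their values were seen, were higher in the eye library. Of these, 11 were at least 2-fold higher in the 48 hpf WT eyes, beside 8.90% of all genes, and 0 in the head. Their median log2 ratio was 1.44, with a range of 0.42 to 1.89. They took 1.26% of the counts of the head and 3.11% of those of the 48 hpf WT eyes. In the other 9 libraries they took 2.77% to 8.68%, so the head had the lowest share of the 11. The cytochrome oxidase subunit gene MT-CO1 stood at 2915 in the head and 7023 in the eyes, and MT-CO2 at 2664 and 7246. The nuclear genes of oxidative phosphorylation had a median of −0.05. Head RNA was purified with the Mini kit and 48 hpf eye RNA with the Micro kit. The parts of kit, age and tissue in this difference cannot be told apart.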
